A study of Mus musculus with 26 samples.

Results

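The clustered protocadherins are cell-surface adhesion proteins of the cadherin superfamily, encoded in an alpha, a beta and a gamma cluster that lie one after another on mouse chromosome 18. In the alpha and gamma clusters each variable exon has its own promoter and is spliced to constant exons shared by the cluster, whereas each beta gene is a single coding exon with its own promoter. The proteins bind copies of themselves on neighbouring cells, and neurons switch on different combinations of them, which gives a neuron a surface identity used to recognise its own branches. The C-type members at the ends of the alpha cluster (Pcdhac1, Pcdhac2) and the gamma cluster (Pcdhgc3, Pcdhgc4, Pcdhgc5) are known to be expressed more uniformly than the others. Members were taken by name, as every gene name on the arrays that begins with Pcdha, Pcdhb, Pcdhga, Pcdhgb or Pcdhgc and goes on with a number or a C-type label. The promoter arrays held 54 such names on 1153 probes and the expression array held 31 on 45 probes, for 56 genes on either. A start could be placed for 48 members (7 alpha, 20 beta and 21 gamma), out of 15155 promoters measured in all. The copies are similar in sequence, so a probe of one member may bind DNA or RNA of another, and clusters are described before single genes.

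The study set induced pluripotent stem (iPS) cells beside mouse embryonic stem (ES) cells and mouse embryonic fibroblasts (MEF), asking how closely their promoter histone marks and their RNA resembled either. Chromatin was precipitated for histone H3 trimethylated at lysine 4 (H3K4me3), a mark of active or poised promoters. It was precipitated separately for H3 trimethylated at lysine 27 (H3K27me3), which Polycomb repressive complexes place at silenced developmental genes. Promoters that carry both marks in ES cells are called bivalent. The ES lines were E14 and V6.5, the fibroblasts were MEF1 (male) and MEF2 (female), and 1 iPS line was used; the labels give no genotype, and neither the reprogramming factors nor the source cells of the iPS line. Each line gave 1 value per mark from a set of 2 arrays, hybridised with precipitated DNA in Cy5 and input DNA in Cy3, so there were 2 ES values, 2 MEF values and 1 iPS value. RNA was hybridised to 6 single-colour arrays: feeder-dependent V6.5 ES cells, female MEF and iPS cells, each with a duplicate that nothing says came from a separate culture, so those p-values may measure technical spread only. The number of arrays limits the precision of every value below, and a mark is the mean over all cells of a line, so fewer marked cells and less mark per cell cannot be told apart.

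A few features of the arrays bear on what follows. The 5 lines correlated positively with each other over the single probes of the H3K27me3 arrays (Pearson r 0.617 to 0.914). This included both fibroblast lines, whose labels name the dye of the precipitated DNA in 2 ways. The second MEF RNA array stood apart, with a median signal of 307 against 34.9 on the first MEF array and 38.6 to 86.2 on the others, and with 86.6% of its probes well above background against 46.0% to 58.4%. On which arrays were ES and which MEF, the scanner files disagreed with the deposited table of values; that table was followed, because Pou5f1, Nanog and the other ES markers were high in its ES columns. In that table the summed signal of 5 ES markers, in multiples of the array's 75th percentile, was 151 and 138 in ES, 0.16 and 1.09 in MEF, and 140 and 129 in iPS. The summed signal of 6 fibroblast markers was 623 and 307 in MEF, 44.3 and 54.1 in ES, and 12.6 and 10.8 in iPS.

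H3K27me3 covered the protocadherin clusters in both ES lines and in the iPS line and was low in both fibroblast lines. Per promoter, the value is the mean log2 ratio of precipitated over input DNA of the probes within 1000 bp of the start, centred so that the median probe of each array is 0. The median over the 48 members was 1.11 in E14 and 1.59 in V6.5, against -0.50 in MEF1 and -0.61 in MEF2, and 1.56 in iPS. Among all 15155 promoters the members' median stood at percentile 98.3 in E14, 96.0 in V6.5 and 98.2 in iPS, and at percentile 11.8 in MEF1 and 14.2 in MEF2. A log2 ratio of 1 or more was taken as marked. By that rule 30 members were marked in E14, 39 in V6.5, 0 in MEF1, 1 in MEF2 and 39 in iPS, where the shares of all promoters were 2.75%, 12.8%, 6.68%, 11.1% and 8.89%.

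Between ES and MEF, 44 of the 48 members had lower H3K27me3 in MEF (limma, Benjamini-Hochberg adjusted p under 0.05 over all promoters) and 0 had higher; over all promoters 7.79% were called lower and 4.63% higher. The lower calls took in 5 of 7 alpha, 20 of 20 beta and 19 of 21 gamma members. The median MEF minus ES difference was -2.05 in the alpha, -2.09 in the beta and -1.72 in the gamma cluster, against -0.04 over all promoters. Both ES lines lay above both MEF lines at 47 of the 48 members, against 35.1% of all promoters. The calls depend on V6.5 and on both fibroblast lines. Without V6.5, without MEF1 or without MEF2, 0 promoters of the table were called, while the members' median difference stayed at -1.69, -1.96 and -1.85; without E14, 45 members were called, with a median of -2.10. With 46 of 48 members against 30.5% of all promoters at an unadjusted limma p under 0.05, the members stood at the strong end of a difference the whole table shows in part.

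**Figure D1:**
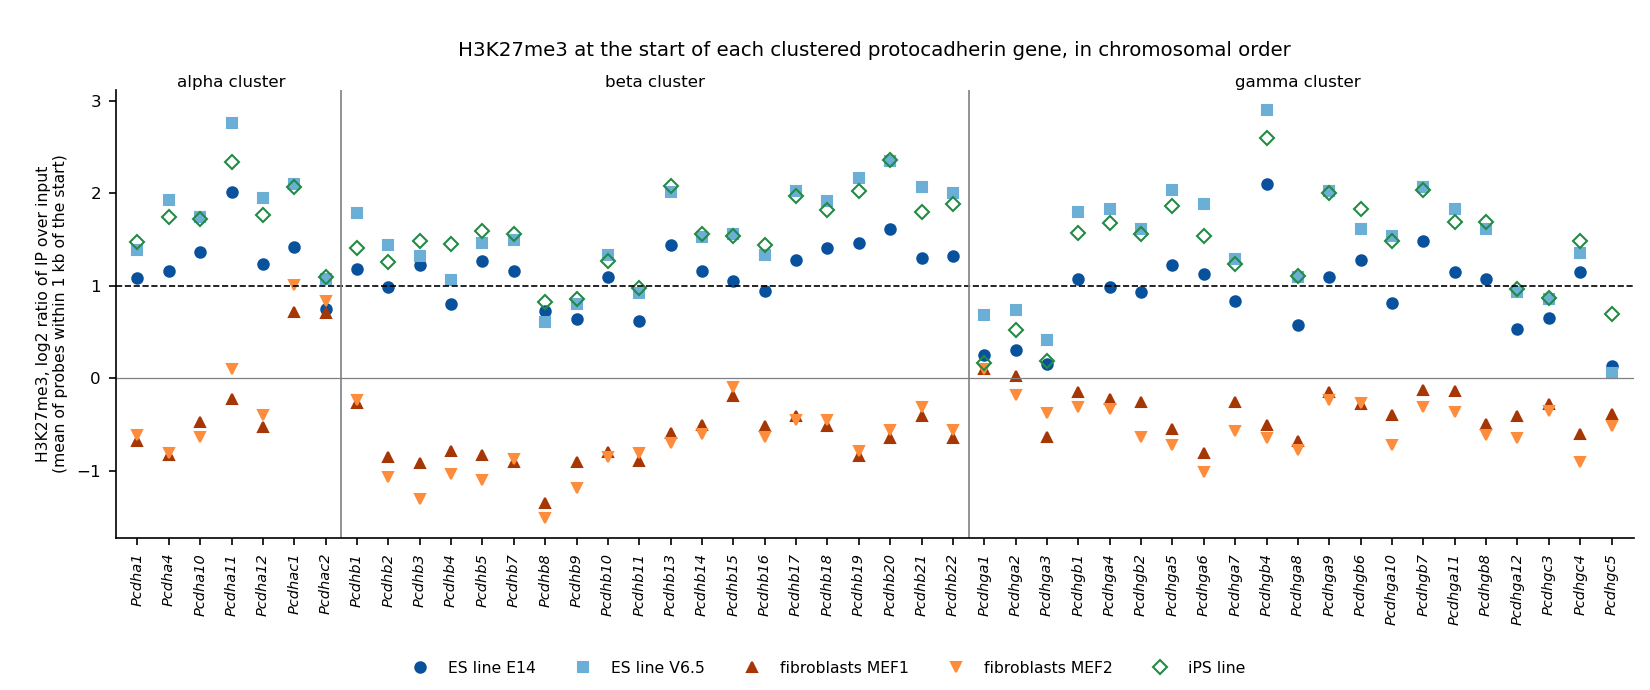
H3K27me3 (mean log2 ratio of precipitated over input DNA within 1 kb of the start) at the 48 measured members in chromosomal order, 1 point per line, with the dashed line at the level counted as marked. The ES and iPS points lie above the fibroblast points along all 3 clusters except at Pcdhac2, and the 5 points come closest at Pcdhac2 and Pcdhga1.

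In the alpha cluster the 5 measured variable genes were all lower in the fibroblasts, and the C-type genes were not called. Pcdha1, the first gene of the cluster, had an H3K27me3 log2 ratio of 1.09 in E14, 1.39 in V6.5, -0.68 in MEF1, -0.61 in MEF2 and 1.48 in iPS (MEF minus ES -1.89, SE 0.15). Pcdha4 gave 1.16, 1.93, -0.82, -0.81 and 1.75 in the same order of lines (-2.36, SE 0.26). Pcdha11, the most strongly marked alpha gene, gave 2.01, 2.77, -0.22, 0.11 and 2.34 (-2.45, SE 0.28). At these 3 genes the ES and iPS values were all above 1 and the MEF values at or below 0.11, and each difference had an adjusted limma p of 0.025, the value shared by most called members. Pcdha10, with 1.37, 1.74, -0.47, -0.64 and 1.72 (-2.11, SE 0.17), and Pcdha12, with a difference of -2.05 (SE 0.25), had the same adjusted p.

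Neither C-type alpha gene was called, and both had H3K27me3 above 0 in the fibroblasts. Pcdhac1 gave 1.42 in E14, 2.10 in V6.5, 0.71 in MEF1, 1.01 in MEF2 and 2.07 in iPS, so the groups did not overlap, but its MEF minus ES difference of -0.90 (SE 0.26) missed the threshold (limma adjusted p = 0.086). Pcdhac2, the last gene of the cluster, gave 0.75, 1.08, 0.71, 0.84 and 1.09. Its MEF lines lay between or just below the ES lines (-0.14, SE 0.15, adjusted p = 0.606), and it was the member at which the groups overlapped. MEF2 at Pcdhac1 was the 1 member promoter marked in a fibroblast line.

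All 20 measured beta genes had lower H3K27me3 in the fibroblasts, with log2 differences from -1.45 at Pcdhb15 (adjusted p = 0.026) to -2.63 at Pcdhb19. Pcdhb1, the first of the cluster, gave 1.18 in E14, 1.79 in V6.5, -0.26 in MEF1, -0.23 in MEF2 and 1.41 in iPS (-1.73, SE 0.22). Pcdhb22, the last, gave 1.32, 2.01, -0.64, -0.55 and 1.88 (-2.26, SE 0.24). The first and the last gene of the cluster were thus alike in level and in direction. Pcdhb19 gave 1.46, 2.16, -0.84, -0.79 and 2.03 (-2.63, SE 0.25), and Pcdhb20 gave 1.62, 2.36, -0.65, -0.56 and 2.36 (-2.59, SE 0.26). These neighbouring genes near the gamma end of the beta cluster had its widest gaps between ES and MEF.

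Between its ends the beta cluster held genes with less of the mark in pluripotent cells. Pcdhb8 gave 0.73, 0.61, -1.35, -1.51 and 0.82 (-2.10, SE 0.13), so it was not counted as marked in any line although its groups were widely apart. Pcdhb9 gave 0.65, 0.81, -0.90, -1.18 and 0.86 (-1.77, SE 0.15), and Pcdhb4 gave 0.80, 1.07, -0.79, -1.04 and 1.45 (-1.85, SE 0.16). The threshold of 1 passes through these genes, which differ little from neighbours just above it. Pcdhb10 gave 1.09, 1.34, -0.80, -0.85 and 1.27 (-2.04, SE 0.13), and Pcdhb7 gave 1.16, 1.5, -0.91, -0.88 and 1.56 (-2.22, SE 0.15). Pcdhb3 gave 1.23, 1.32, -0.91, -1.31 and 1.49 (-2.38, SE 0.17). In each of these 6 genes the iPS value was close to or above the higher ES value, and every MEF value was at or below -0.79. Pcdhb5 gave 1.27, 1.46, -0.83, -1.1 and 1.60 (-2.33, SE 0.15), and Pcdhb14 gave 1.16, 1.53, -0.50, -0.61 and 1.57 (-1.90, SE 0.16).

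The gamma cluster held the strongest difference and also 2 variable genes that were not called. Pcdhgb4 gave 2.11 in E14, 2.90 in V6.5, -0.50 in MEF1, -0.64 in MEF2 and 2.60 in iPS, a MEF minus ES difference of -3.08 (SE 0.28). Pcdhga6 gave 1.13, 1.89, -0.81, -1.01 and 1.54 (-2.42, SE 0.27). Both had ES and iPS values above 1 and MEF values at or below -0.50. Pcdhga1, the first gamma gene, gave 0.26, 0.69, 0.10, 0.10 and 0.16, with its iPS value between the ES and the MEF lines (-0.38, SE 0.17, adjusted p = 0.223). Its neighbour Pcdhga2 gave 0.30, 0.74, 0.03, -0.18 and 0.53 (-0.60, SE 0.19, adjusted p = 0.104), and the next gene, Pcdhga3, had a difference of -0.79 (adjusted p = 0.040). The first genes of the gamma cluster were thus, beside Pcdhgc5 at its other end, the members with the least H3K27me3 in ES cells.

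At the other end of the gamma cluster the C-type genes differed among themselves. Pcdhgc4 gave 1.15, 1.36, -0.60, -0.91 and 1.49 (-2.01, SE 0.16), like the variable genes. Pcdhgc3 gave 0.66, 0.85, -0.28, -0.35 and 0.87 (-1.07, SE 0.13). Pcdhgc5, the last gene, gave 0.14, 0.06, -0.39, -0.51 and 0.69 (-0.55, SE 0.12, adjusted p = 0.047), so ES and MEF did not overlap but the gap was narrow and the iPS value lay above both ES lines. Of the 5 C-type genes, 3 were thus called, against 41 of the other 43 members. Pcdhga8, a variable gene, gave 0.57, 1.09, -0.68, -0.77 and 1.1 (-1.56, SE 0.20), and Pcdhgb6 gave 1.28, 1.61, -0.27, -0.27 and 1.83 (-1.72, SE 0.15).

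The iPS line carried H3K27me3 over the members at the ES level. Its value was above both MEF lines at 48 of the 48 members, against 47.1% of all promoters, and nearer to the ES mean than to the MEF mean at 47 of them, against 74.3%. In the iPS to ES comparison, 0 members were called by limma, as were 0% of all promoters, with 2 members and 1.96% of all promoters at an unadjusted p under 0.05. The median iPS minus ES difference over members was 0.22 and the range was -0.31 to 0.59. V6.5 and iPS were scanned in 1 session for this mark, and against V6.5 alone the median was -0.03 (range -0.52 to 0.63). In the iPS to MEF comparison the members' median difference was 2.14, and 46 of 48 had an unadjusted p under 0.05 against 20.2% of all promoters. With a single iPS line, 0 members passed the limma adjustment in that comparison, as did 0 of the 15155 promoters (0%); the lowest adjusted p of a member was 0.075. The adjusted count moved with the fit: when every probe of a gene was averaged, 51 of 53 members and 1084 of 17872 genes were called. Leaving out E14 and leaving out V6.5 give the same fit for this comparison, and the members' median difference stayed at 2.14.

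Along the chromosome the median H3K27me3 over probes was high within the clusters and low beside them. The members' probes span 895 kb, with alpha probes from -3.52 to 216 kb of the first placed alpha start, beta probes from 329 to 589 kb and gamma probes from 731 to 892 kb. Over the 1153 member probes the median H3K27me3 log2 ratio was 1.01 in E14, 1.52 in V6.5, -0.48 in MEF1, -0.57 in MEF2 and 1.5 in iPS. The 318 probes before the alpha cluster had medians from -0.88 to -0.37 in the 5 lines, and the 323 probes after the gamma cluster had medians from 0.10 to 0.17. Between the beta and gamma clusters lie Taf7, a subunit of the general transcription factor TFIID, and other non-member sequence, and 52 probes there had medians from -0.14 to 0.14. The medians of the flanks and of the stretch between beta and gamma thus lacked the gap between ES and MEF seen over the members, although single flanking genes, described further on, did carry the mark. Within that stretch, 10 probes between Taf7 and 3222401L13Rik had the reverse order. Their medians were 0.34 in E14, 0.98 in V6.5, 1.27 in MEF1, 1.74 in MEF2 and 0.80 in iPS.

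**Figure D2:**
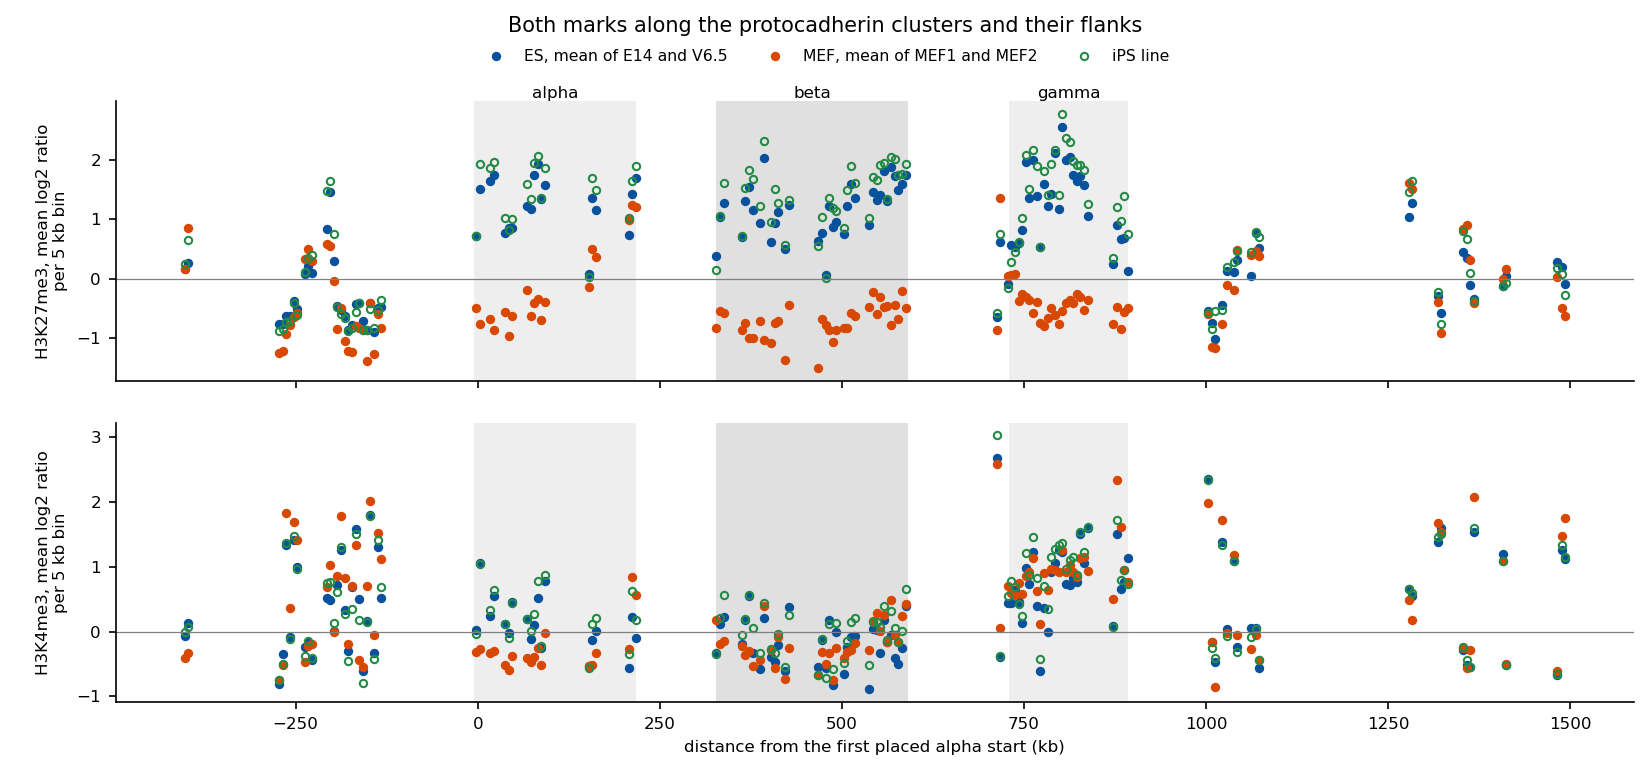
Mean log2 ratio of H3K27me3 (top) and H3K4me3 (bottom) in 5 kb bins along the 3 clusters (shaded) and their flanks, as the mean of the ES lines, the mean of the MEF lines and the iPS line, by distance in kb from the first placed alpha start. In the top panel ES and iPS lie above MEF across the shaded clusters, apart from a few bins at their ends. Outside them the 3 groups mostly lie closer together. Exceptions include the bin at -202.5 kb, where ES and iPS lie above MEF, and the bin at 717.5 kb, where MEF lies above both.

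Averaged over the members of a cluster, H3K27me3 in ES cells was spread over the whole measured width, and in bins with at least 3 members it was highest after the start. In 500 bp bins averaged over members, the ES level in the beta cluster was highest 1250 bp after the start, at 2.23, where MEF had -0.70 and iPS had 2.59. In the gamma cluster the ES maximum was 1.89, also at 1250 bp (MEF -0.37, iPS 2.17), and in the alpha cluster it was 1.87, at 750 bp (MEF -0.22, iPS 2.24). Farther out, at 4750 bp before the start, the ES level was still 1.19 in the alpha, 1.32 in the beta and 1.29 in the gamma cluster. The MEF mean was highest in the alpha cluster, at 0.17 in the bin 2250 bp before the start, and below 0 in every bin of the beta and gamma clusters.

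**Figure D3:**
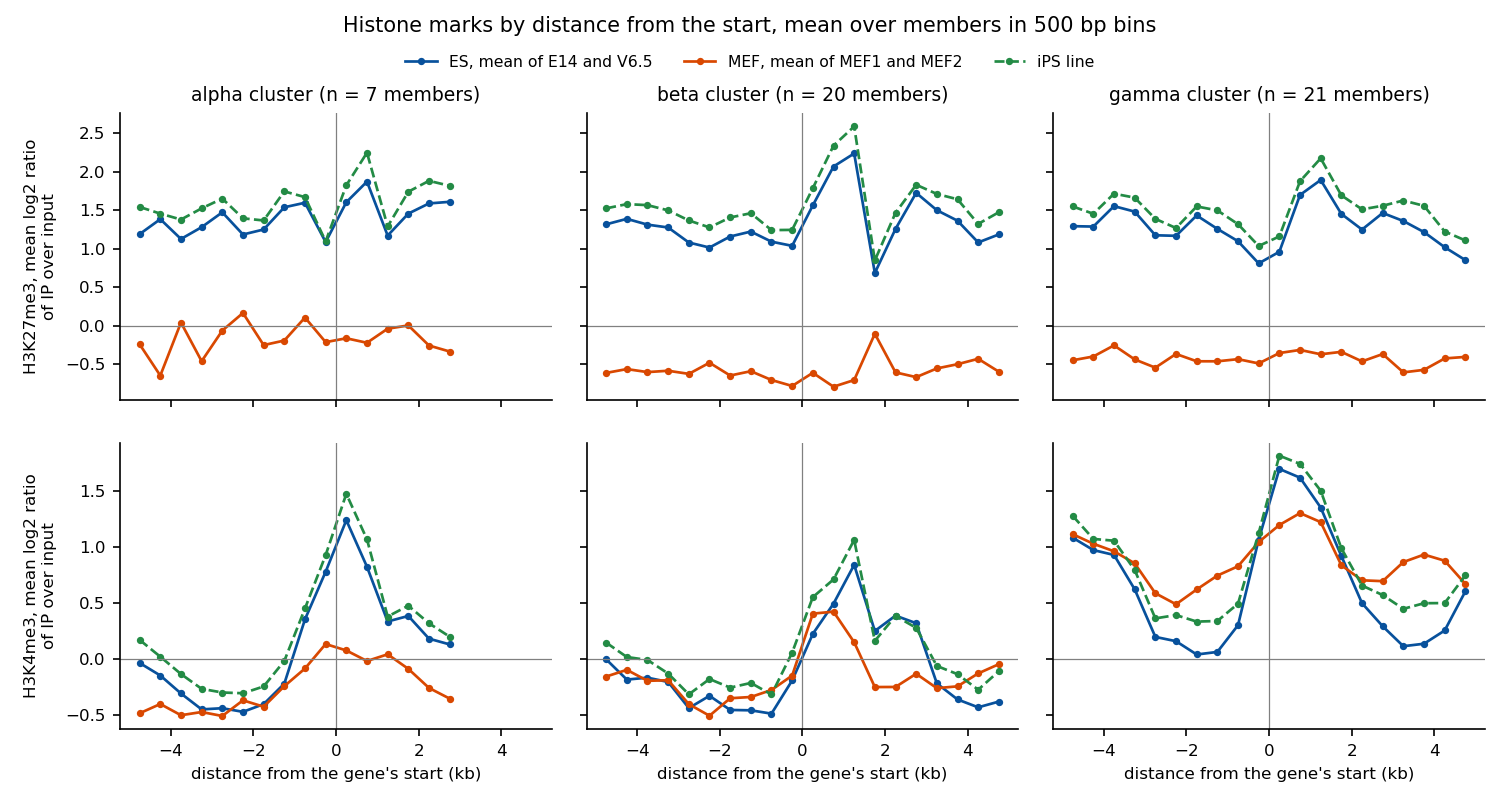
H3K27me3 (top) and H3K4me3 (bottom) by distance from the start in kb, as the mean log2 ratio over the members of each cluster in 500 bp bins, for ES, MEF and iPS; bins with under 3 members are not drawn. H3K27me3 in ES and iPS stays above MEF at every distance drawn, while H3K4me3 in ES and iPS rises around the start and in the gamma cluster the MEF curve is flatter.

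The H3K4me3 level around the start differed between the clusters, and in parts of them also between the cell types. The gamma cluster had it in every line, with medians of 1.15 in E14, 1.26 in V6.5, 1.04 in MEF1, 1.01 in MEF2 and 1.32 in iPS, close to the medians of all promoters (0.93, 1.16, 1.01, 1.1 and 0.94). The beta cluster had a median near 0 in every line (-0.03, -0.18, 0.03, -0.10 and 0.14). Farther in, 1250 bp after the start, the mean of 17 beta members was 0.84 in ES and 1.06 in iPS, against 0.15 in MEF. From 1000 to 2000 bp after the start only 3 beta members had enough probes for a fit, and 0 were called between MEF and ES. The alpha cluster had an intermediate level in ES and iPS that was lower in MEF (0.87, 0.76, 0.01, -0.25 and 0.92). At the log2 ratio of 1 counted as marked, gamma members made up 14 of the 18 marked members in E14, 15 of 15 in V6.5, 13 of 13 in MEF1, 11 of 12 in MEF2 and 14 of 17 in iPS. Between 47.2% and 55.1% of all promoters were marked in a line.

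Between ES and MEF, 4 members had lower H3K4me3 in MEF by limma, all of them alpha genes, where 3.21% of all promoters were called lower. Pcdhb19 had a higher level, where 2.09% were called higher. These calls also rest on both fibroblast lines: 0 remained without MEF1 or without MEF2, 4 members were called without E14 and 6 without V6.5. With normexp background correction in place of the scanner's processed signal, 10 members were called lower and 3 higher. In that setting 3512 of the 15155 promoters were called in either direction. An unadjusted limma p under 0.05 was found at 15 of the 48 members and at 15.4% of all promoters. Both ES lines lay above both MEF lines at 20 members (6 of 7 alpha, 4 of 20 beta, 10 of 21 gamma), against 25.7% of all promoters. Both lay below both MEF lines at 17 members (1 alpha, 10 beta, 6 gamma), against 14.6%.

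**Figure D4:**
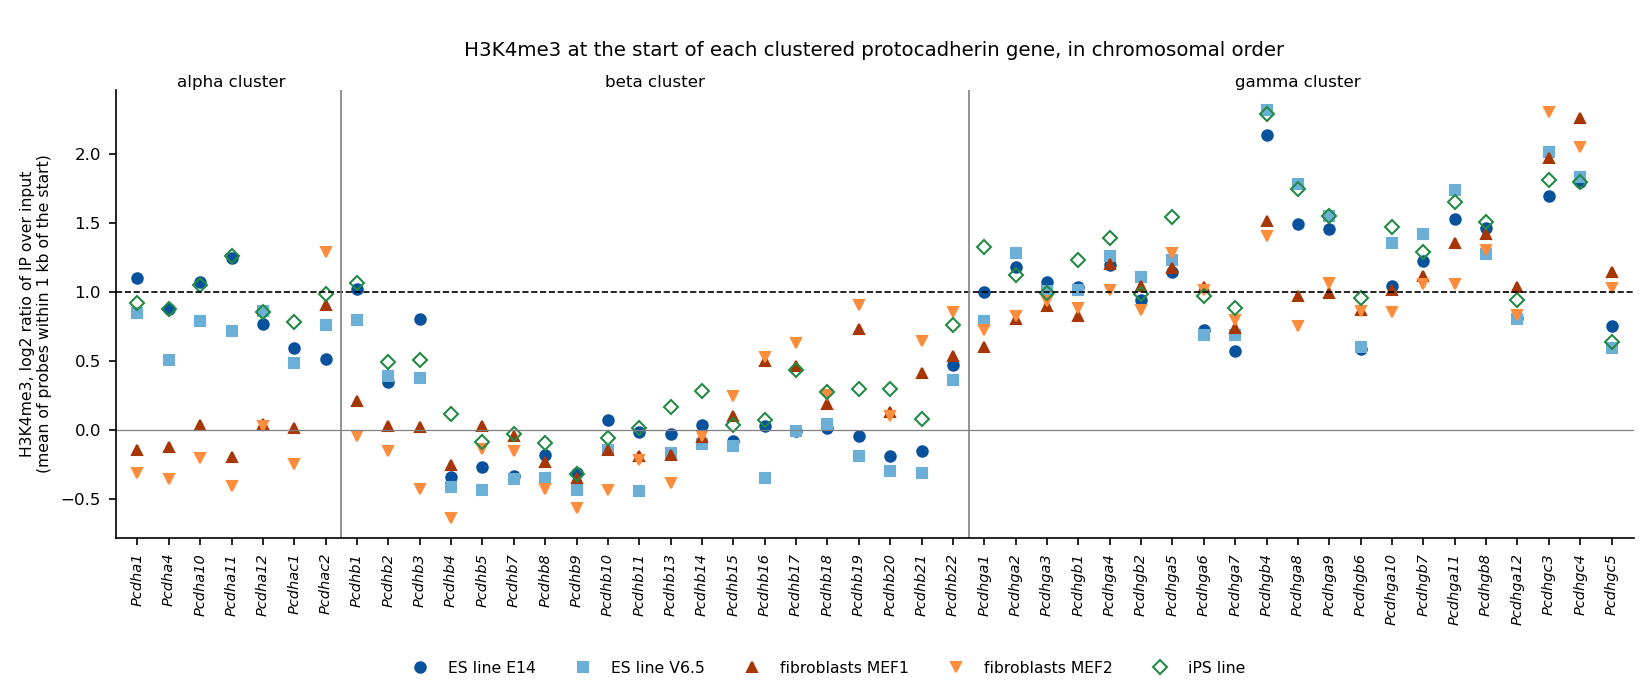
H3K4me3 (mean log2 ratio of precipitated over input DNA within 1 kb of the start) at the 48 measured members in chromosomal order, 1 point per line, with the dashed line at the level counted as marked. The gamma members sit near or above that level in all lines, the beta members near 0, and the alpha members other than Pcdhac2 have their fibroblast points below their ES and iPS points.

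The alpha cluster's median H3K4me3 difference between MEF and ES was -0.93, and it was negative under each of the 13 settings run. These include the main fit, and also fits on ES and MEF lines only or from at least 1 probe. Those fits could not change a member's difference, so their sign was fixed in advance. Pcdha1 had an H3K4me3 log2 ratio of 1.1 in E14, 0.84 in V6.5, -0.15 in MEF1, -0.31 in MEF2 and 0.92 in iPS (-1.20, SE 0.22, limma adjusted p = 0.010). Pcdha11 gave 1.25, 0.71, -0.20, -0.41 and 1.26 (-1.28, SE 0.24, adjusted p = 0.012). Pcdha4 gave 0.87, 0.51, -0.13, -0.36 and 0.87 (-0.93, SE 0.23, adjusted p = 0.042). In these genes, and in Pcdha10 with 1.07, 0.78, 0.03, -0.20 and 1.05 (-1.01, SE 0.22, adjusted p = 0.026), every ES and iPS value was at or above 0.51 and every MEF value at or below 0.03. The same variable alpha genes had thus lower values of both marks in the fibroblasts. Pcdhac1 had H3K4me3 values of 0.59, 0.48, 0.01, -0.25 and 0.78 (-0.65, adjusted p = 0.135). Pcdhac2 was the alpha gene with the opposite order, at 0.51, 0.76, 0.91, 1.29 and 0.98 (0.46, adjusted p = 0.404).

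Within the beta cluster the H3K4me3 difference changed with position. The first 3 genes, Pcdhb1 to Pcdhb3, had a median MEF minus ES difference of -0.79, Pcdhb4 to Pcdhb15 of -0.04, and Pcdhb16 to Pcdhb22 of 0.56. The difference was negative at all 3 of the first genes and positive at all 7 of the last genes under each of the 13 settings, which again include fits that could not change it. For the middle genes the median turned positive with normexp correction (0.041), without centring (0.027), without E14 (0.033) or without MEF2 (0.035), and for the whole beta cluster the median of 0.11 turned to -0.06 with all probes of a gene. Pcdhb1 gave 1.02, 0.79, 0.21, -0.05 and 1.06, with both MEF lines below the others (-0.83, adjusted p = 0.061). Pcdhb3 gave 0.80, 0.37, 0.02, -0.43 and 0.51 (-0.79, adjusted p = 0.111).

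At the gamma end of the beta cluster the order of the groups was turned. Pcdhb19 gave -0.05 in E14, -0.19 in V6.5, 0.73 in MEF1, 0.90 in MEF2 and 0.30 in iPS (0.94, SE 0.21, limma adjusted p = 0.031). Pcdhb21 gave -0.15, -0.32, 0.41, 0.64 and 0.08 (0.76, adjusted p = 0.079), and Pcdhb16 gave 0.03, -0.35, 0.50, 0.53 and 0.07 (0.68, adjusted p = 0.133). In these 3 genes both MEF lines were above both ES lines, yet no value reached the level counted as marked. Pcdhb20 gave -0.19, -0.30, 0.13, 0.10 and 0.30, and Pcdhb22 gave 0.47, 0.36, 0.53, 0.86 and 0.76. The 5 middle genes Pcdhb4, Pcdhb5, Pcdhb7, Pcdhb8 and Pcdhb9 had no value above 0.11 in any line, and Pcdhb10 and Pcdhb14 none above 0.28.

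The gamma genes carried H3K4me3 in all lines, and none of the 21 was among the 5 members called between ES and MEF. The gamma median difference of -0.12 turned to 0.13 with all probes of a gene, so no direction is given for that cluster. Pcdhgb4, which had the largest H3K27me3 difference, also had high H3K4me3 in every line (2.13, 2.32, 1.51, 1.40 and 2.29; MEF minus ES -0.77, adjusted p = 0.071). Pcdhga8 gave 1.49, 1.78, 0.97, 0.75 and 1.75 (-0.77, adjusted p = 0.082). In both the MEF values were below the ES values by less than the adjusted test could call. Pcdhga1 gave 1.00, 0.79, 0.60, 0.72 and 1.32, Pcdhga6 gave 0.72, 0.69, 1.04, 1.01 and 0.97, and Pcdhgb6 gave 0.58, 0.60, 0.87, 0.86 and 0.96. The C-type genes Pcdhgc3 (1.70, 2.02, 1.97, 2.30 and 1.81) and Pcdhgc4 (1.80, 1.83, 2.26, 2.05 and 1.80) were marked in all 5 lines, with ES and MEF overlapping at Pcdhgc3 and MEF above ES at Pcdhgc4. Pcdhgc5 gave 0.75, 0.59, 1.15, 1.03 and 0.63, with MEF above ES.

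Between the gamma starts the fibroblasts had more H3K4me3 than the ES cells. This zone was chosen after the profile by distance had been seen. In the window from 1000 to 3000 bp before the start, 19 gamma members had a median of 0.08 in E14, 0.16 in V6.5, 0.68 in MEF1, 0.60 in MEF2 and 0.30 in iPS. Of them, 8 were higher in MEF by limma, where 3.71% of the 13711 genes measured in that window were called higher; the median difference was 0.70, against 0.06 over all. The called genes were Pcdhga1, Pcdhga3, Pcdhgb1, Pcdhgb2, Pcdhga7, Pcdhga9, Pcdhgb6 and Pcdhgc4. Pcdhga7 gave -0.45, -0.55, 0.45, 0.35 and 0.03 (0.90, SE 0.16, adjusted p = 0.023) and Pcdhga9 gave 0.06, -0.05, 0.95, 0.71 and 0.35 (0.82, adjusted p = 0.034). In both the iPS value lay between the ES and the MEF lines. The count was 1 without E14, 0 without V6.5, 9 without MEF1 and 4 without MEF2. In the same window the median difference was -0.09 over 7 alpha and 0.02 over 16 beta members.

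In the iPS line 0 members differed from ES in H3K4me3 by limma, as did 0% of all promoters, and 0 members had an unadjusted p under 0.05, against 1.43% of all promoters. The members' median iPS minus ES difference was 0.17. With normexp correction it was -0.27, with 0 members and 0 of the 15155 promoters called. In that setting 16 members had an unadjusted limma p under 0.05. The share of all promoters at that p was not counted, so nothing is read from it. E14 and iPS were scanned in 1 session for this mark, and against E14 alone the median was 0.14 (range -0.30 to 0.49). The iPS value was above both ES lines at 30 of 48 members, 17 of them beta genes, against 23.7% of all promoters. Against MEF, Pcdha11 was the member called higher in iPS (1.57, limma adjusted p = 0.039), where 0.581% of all promoters were called higher. With normexp correction 0 members were called higher and 3 lower, where 1577 of the 15155 promoters were called in either direction.

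Counting both marks together, at a log2 ratio of at least 1 each, 12 members carried both in E14, 12 in V6.5, 0 in MEF1, 0 in MEF2 and 14 in iPS. The corresponding shares of all promoters were 0.944%, 5.14%, 0.706%, 1.66% and 3.09%. Gamma members made up 8 of these in E14, 12 in V6.5 and 11 in iPS. H3K27me3 alone was at 18, 27, 0, 1 and 25 members in the same order of lines, and H3K4me3 alone at 6, 3, 13, 12 and 3. In the fibroblasts 35 of the 48 members in each line carried neither mark at that level, against 12, 6 and 6 in E14, V6.5 and iPS. Means over cells do not show whether both marks sat on the same chromosome copy.

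The promoters differ in base composition from most others on the arrays. The probes around a member's start held a median of 1.39 CpG dinucleotides per 100 bases, against 2.28 for all promoters, and a GC content of 38.3% against 45.3%. By cluster the CpG median was 2.25 in alpha, 1.11 in beta and 1.56 in gamma, which is not the order of their H3K4me3 levels. The C-type genes Pcdhac2 (4.07) and Pcdhgc3 (3.73) had CpG counts well above the members' median. Over the 48 members the CpG count correlated with the ES H3K4me3 level with Pearson r 0.54 and Spearman rho 0.57, and with the ES H3K27me3 level with 0.09 and 0.15. Within the 21 gamma members r with the H3K4me3 level was 0.72. These are descriptions over genes that share arrays, a chromosome region and similar sequence, and base composition also affects hybridisation; its part in the levels was not tested.

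Starts could not be placed for 6 members, which were measured by the mean over all of their probes. In that fit Pcdha2, Pcdha5, Pcdha7, Pcdhb6, Pcdhb12 and Pcdhgb5 all had lower H3K27me3 in MEF, by -2.27, -2.69, -1.64, -1.76, -1.75 and -2.01 (limma adjusted p = 0.0053 for each), where 17% of 17872 genes were called lower. For H3K4me3, Pcdha2 (1.11 in E14, 1.00 in V6.5, -0.19 in MEF1, -0.35 in MEF2 and 1.04 in iPS) and Pcdha5 (1.16, 0.72, -0.21, -0.36 and 0.99) were lower in MEF by -1.32 (adjusted p = 0.00059) and -1.23 (adjusted p = 0.0019), where 3.64% of genes were called lower. These alpha genes had ES and iPS levels and MEF levels like those of Pcdha1 and Pcdha11. Pcdha7 had an H3K4me3 difference of -0.62 (adjusted p = 0.053), and Pcdhb6, Pcdhb12 and Pcdhgb5 had differences from -0.24 to 0.09.

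RNA of the beta genes was detected in fibroblasts and almost nowhere else. Of the 22 beta genes on the expression array, 0 and 0 had a probe well above background on the ES arrays, 11 and 17 on the MEF arrays, and 1 and 1 on the iPS arrays. Of the 6 gamma genes with a probe, 3 were above background on every ES and iPS array and on 1 MEF array, and 6 on the other MEF array. Over all 31 genes the counts were 4 and 5 in ES, 15 and 26 in MEF and 6 and 6 in iPS. The background flags of the second iPS array were taken from the first, so its counts repeat those of the first and are no separate detection. The array with 26 is the second MEF array, which stands apart in signal. Values are log2 signal relative to the array's 75th percentile, so a value of 0 is that percentile.

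Because 10 of the 16 members that passed the filter on dim probes did so through MEF alone and so had to differ, the RNA result is given for all 31 members without a filter. In that fit 12 of 31 members were higher in MEF than in ES by limma (adjusted p under 0.05 and at least 2-fold), where 6.73% of 27558 genes were. At an unadjusted limma p under 0.05 there were 16 of the 31 members, against 34.55% of all genes. The median MEF minus ES difference was 2.81, against 0.77 over all genes. The filtered fit called 13 of 16 higher and 0 lower, where 15.6% of 17265 genes were called higher and 17.5% lower, and nothing is read from that count. Without the first MEF array the members' median difference was 3.99, against 1.21 over all genes. Dimmer probes of the second MEF array then passed the filter. The filtered count was 6 of 16 under quantile normalization, alone or after normexp, with a positive difference at 14 of 16 in both. In those scalings 6086 and 4496 of 17265 genes were called in either direction. The members' median difference was 3.97 in the filtered fit, 2.66 with quantile normalization and 1.28 with normexp and quantile. Pcdha9, Pcdhb6, Pcdhb17, Pcdhb21 and Pcdhga7 were called under all 3 scalings.

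**Figure D5:**
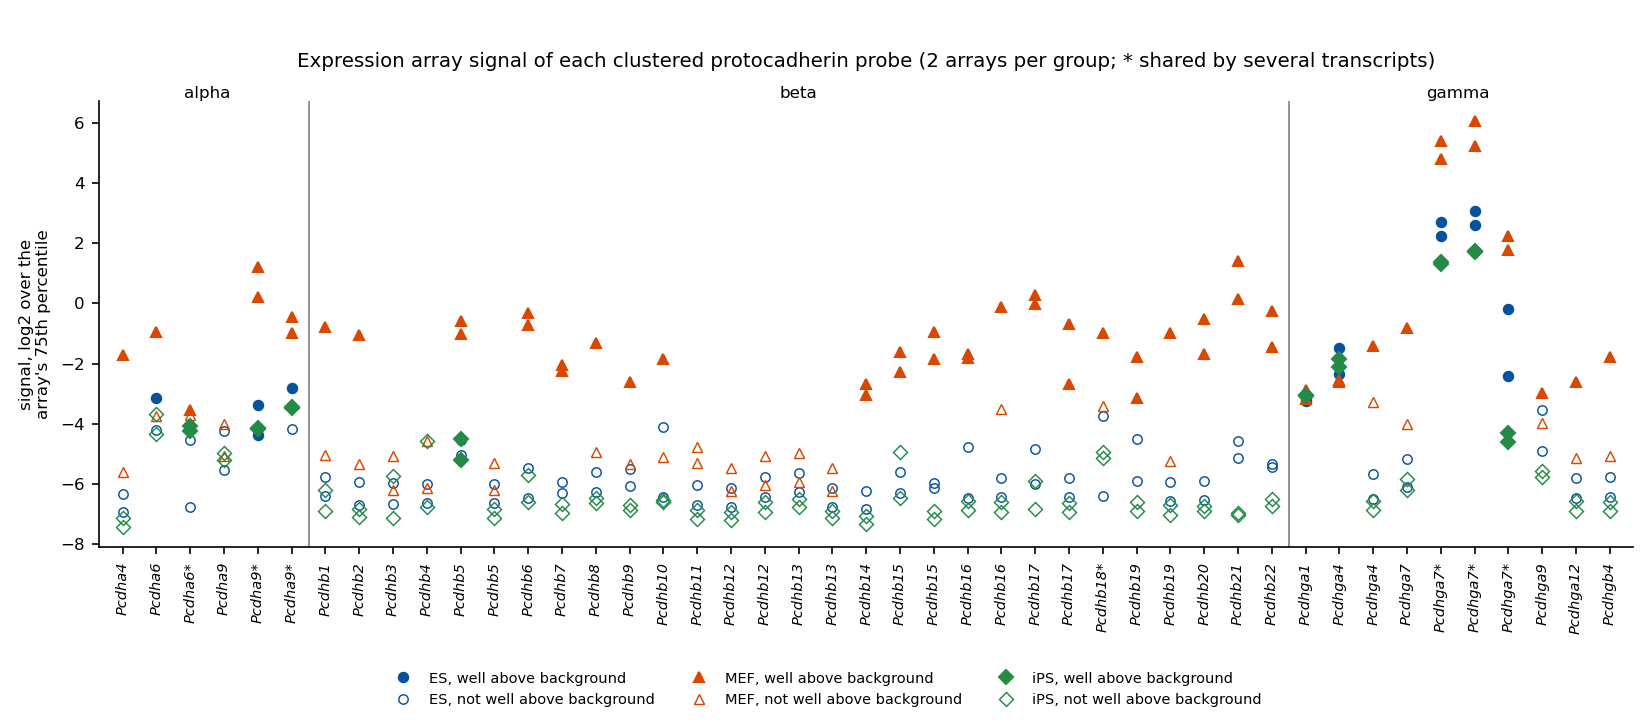
Expression signal of each member's probes (log2 relative to the array's 75th percentile), 2 arrays per group, with filled symbols for signals well above background and open symbols for those that were not; an asterisk marks a probe listed for several transcripts. The beta probes have filled symbols mainly in MEF, while their ES and iPS symbols are nearly all open and lie below them. The second iPS array is drawn with the background flags of the first.

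Pcdhb21, a beta gene near the gamma end, had a signal of 1.39 and 0.15 in MEF, against -5.13 and -4.58 in ES and -7.04 and -6.96 in iPS. It was not well above background in ES or iPS, so its fold is a bound, set against the lowest signal of any probe above background: at least 34.2-fold over ES and at least 49.2-fold over iPS (limma adjusted p = 0.0089 for MEF against ES). The adjusted p-values given for the beta genes come from the fit without a filter. Each bound, here and below, holds only for the percentile scaling of the values given. The members' median difference was smaller with quantile normalization, alone or after normexp, as given above, so the bounds are not minimums under those scalings. Pcdhb17 had 0.27 and -0.03 in MEF, -4.85 and -6.00 in ES, and -6.82 and -5.91 in iPS (at least 21.8-fold over ES, adjusted p = 0.0096). Pcdhb6 had -0.32 and -0.72 in MEF, -6.46 and -5.45 in ES, and -6.59 and -5.69 in iPS (at least 20.1-fold over iPS, adjusted p = 0.0095 against ES). In each of these genes both MEF arrays were far above all 4 others.

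Pcdhb22, the last beta gene, had -0.24 and -1.46 in MEF, -5.35 and -5.44 in ES, and -6.51 and -6.73 in iPS (at least 11.1-fold over ES, limma adjusted p = 0.011). Pcdhb20 had -0.52 and -1.70 in MEF, -6.54 and -5.91 in ES, and -6.73 and -6.90 in iPS (at least 9.28-fold over ES, adjusted p = 0.0096). Pcdhb5 had -0.59 and -1.01 in MEF, -5.04 and -4.52 in ES, and -4.52 and -5.19 in iPS (at least 11.5-fold over ES, adjusted p = 0.012). A second probe listed for Pcdhb5 alone was below background on all 6 arrays, with a MEF minus ES difference of 0.58. Pcdhb5 was the beta gene with signal above background on the first iPS array, whose flags also served for the second, though at the level of the ES arrays. Pcdhb15 (-2.27 and -1.63 in MEF), Pcdhb16 (-1.68 and -1.82) and Pcdhb7 (-2.25 and -2.05) were called with at least 5.19-fold, 5.95-fold and 4.51-fold over ES. Pcdhb14 (-3.03 and -2.68) was called with at least 2.77-fold. Pcdhb19 (-1.78 and -3.14) had a bound of at least 3.54-fold but was not called in the fit without a filter (adjusted p = 0.068). The second probes of Pcdhb16 and Pcdhb19 were above background on the second MEF array alone, and those of Pcdhb15 and Pcdhb17 on both MEF arrays.

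Pcdhga7 was above background in every group, on probes listed for several gamma transcripts, which may read RNA that the cluster's genes share. Its brightest probe had 6.05 and 5.22 in MEF, 2.59 and 3.06 in ES, and 1.73 and 1.72 in iPS (MEF minus ES 2.81, SE 0.46, limma adjusted p = 0.0052). The probe listed for Pcdhga7 alone was below background on all arrays but the second MEF array. Pcdha9 was likewise read by a probe shared between alpha transcripts, with 1.22 and 0.22 in MEF, -4.36 and -3.37 in ES, and -4.16 and -4.13 in iPS (4.58, SE 0.54, adjusted p = 0.0017). The probe listed for Pcdha9 alone was below background on all 6 arrays and differed by 0.36. The signal of these shared probes cannot be assigned to the named gene.

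The other 3 tested members were not called. The shared probe of Pcdha6 had -3.71 and -3.54 in MEF, -6.75 and -4.54 in ES, and -4.09 and -4.25 in iPS (2.02, SE 0.72, limma adjusted p = 0.072). Pcdhga1, whose promoter did not differ in H3K27me3 either by that test, had -2.87 and -3.18 in MEF, -3.24 and -3.16 in ES, and -3.09 and -3.05 in iPS (0.17, SE 0.39, adjusted p = 0.761). Pcdhga4 had -2.54 and -2.60 in MEF, -2.33 and -1.5 in ES, and -2.13 and -1.85 in iPS (-0.65, SE 0.45, adjusted p = 0.301). Its second probe was above background on 1 MEF array and on no other.

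In iPS cells no member's RNA was called different from that in ES cells. By limma 0 members were called between iPS and ES, where 0.162% of genes were, and 2 had an unadjusted p under 0.05, against 15.6% of genes. Those were Pcdhb21 (iPS minus ES -2.14, adjusted p = 0.155) and Pcdhb22 (-1.23, adjusted p = 0.317), both below background in ES and iPS. Against MEF, 13 of 31 members were lower in iPS without the filter, where 8.15% of genes were. With the filter it was 13 of 16, where 16.8% of genes were, but 10 of these had entered through MEF alone, so that count had little room to differ and nothing is read from it. This comparison shares its MEF arrays with the one between MEF and ES, so the calls are not independent of each other. The ES cells were feeder-dependent, and their summed fibroblast marker level of 44.3 and 54.1 was above the iPS level of 12.6 and 10.8; the part of feeder cells in the ES values of the members was not tested.

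RNA and H3K4me3 in fibroblasts can be set side by side for the beta genes with a probe of their own. The 10 genes with RNA above background on both MEF arrays (Pcdhb5, Pcdhb7, Pcdhb14 to Pcdhb17 and Pcdhb19 to Pcdhb22) had a median MEF H3K4me3 log2 ratio of 0.34, against -0.14 in ES. The 5 genes detected on 1 MEF array (Pcdhb1, Pcdhb2, Pcdhb8, Pcdhb9 and Pcdhb10) had -0.29 and the 4 detected on neither (Pcdhb3, Pcdhb4, Pcdhb11 and Pcdhb13) had -0.25. H3K27me3 in MEF was low in all of them, with medians of -0.59, -0.96 and -0.88, and in ES the medians were 1.51, 1.21 and 1.11. These groups were formed from the RNA values, so the medians are a description without a test, and the fibroblast RNA and chromatin came from separately labelled samples.

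Markers of other cell types that could add protocadherin RNA were measured on the same arrays. The 11 neuron and neural progenitor markers with a probe, of 12 listed, summed to 4.69 and 5.73 in MEF, 9.06 and 12.7 in ES, and 7.95 and 8.13 in iPS. Of the 9 tested 0 were higher and 5 lower in MEF, where 15.6% of all genes were called higher and 17.5% lower. By gene the list was mixed: Nes and Tubb3 carried most of the sum, while Dcx, Gfap, Syp and Sox1 were highest on the second MEF array (-0.12, -0.78, -0.23 and -1.40), where 8 of the 11 were above background, against 2 on the first. Their part in the members' MEF signal was not tested. Macrophage markers were present in the fibroblast RNA: the 5 genes summed to 101 and 57.2 in MEF, 2.16 and 1.88 in ES, and 1.98 and 2.22 in iPS. Of them, Lyz2, Csf1r, Adgre1 and Ptprc were called higher, 2 of the 5 under quantile normalization. The part of such cells in the members' MEF signal was not tested. All 6 fibroblast markers were called higher and all 5 ES markers lower in MEF.

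In the marks, the genes around the clusters were called at about the share of all promoters. Of 14 measured neighbouring promoters of 18 listed, 1 had lower H3K4me3 in MEF (Dnd1, an RNA-binding protein of germ cells, -1.35, adjusted p = 0.0044) and 1 had lower H3K27me3 (Cd14, a myeloid receptor for bacterial lipopolysaccharide, -1.34, adjusted p = 0.044). Over all promoters 3.21% and 7.79% were called lower in these marks. In RNA, 1 of 17 was higher in MEF (Cd14, 4.42) and 6 were lower, where 15.6% of all genes were called higher and 17.5% lower. Among the lower were Dnd1 (-4.04), Taf7 (-3.62) and Slc25a2 (-2.33), a mitochondrial carrier. Under quantile normalization 7 were lower, and with normexp and quantile 5. Taf7 lies between the beta and the gamma cluster and had H3K4me3 log2 ratios of 2.20 to 3.26 over its probes in the 5 lines. Pcdh1, a protocadherin outside the clusters, kept H3K27me3 in all lines (0.98, 1.59, 1.22, 1.88 and 1.65).

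Protocadherins and cadherins outside the clusters went in both directions. Of 7 tested non-clustered protocadherins of 13 listed, 4 had more RNA in MEF, namely Pcdh18 (5.24), Pcdh9 (4.67), Pcdh7 (4.01) and Pcdh19 (3.80), and 1, Pcdh8, had less. Over all genes 15.6% were called higher and 17.5% lower in MEF. Pcdh18 also had higher H3K4me3 (1.42, adjusted p = 0.011) and lower H3K27me3 (-1.86, adjusted p = 0.032) in MEF, and was the 1 of 9 such promoters called in either mark. Of 12 other adhesion genes, Cdh2, the neural and mesenchymal cadherin, had more RNA in MEF (2.59) and Cdh1, the epithelial cadherin, had less (-5.50). At the promoters of 10 of them, Cdh1 had lower H3K4me3 (-1.11) and higher H3K27me3 (1.28), the reverse of the H3K27me3 difference at the protocadherins, and Cdh11 had lower H3K27me3 (-1.44). Among 19 tested genes of factors known to act on protocadherin promoters, such as DNA methyltransferases and chromatin regulators, 11 had less RNA in MEF (11 with quantile normalization and 10 with normexp and quantile), where 17.5% of all genes did. They included the DNA methyltransferase Dnmt3b (-6.63, adjusted p = 0.00073), the corepressor Trim28 (-2.96), the H3K9 methyltransferase Setdb1 (-2.30) and the repressor Rest (-2.57).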

How the data were processed

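Scanner files of the 20 promoter arrays held dye intensities and a log10 ratio per spot as deposited, made by Agilent Feature Extraction with linear dye normalization per the file headers; the intensities were used, and the log10 ratio was an alternative. The 6 expression arrays were taken from the deposited value table of processed signal intensities. No source used here names the genome build. Members and gene lists were chosen with earlier results of these data known.

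Promoter values are log2 of Cy5 over Cy3 processed signal, centred on each array's median, without control and outlier spots, averaged over at least 3 probes (members 5 to 12, median 10) within 1000 bp of the start. Starts were set midway between a gene's last promoter probe and the next probe, by the positions and labels in the probe annotation. For members that next probe was their own inside probe (26 members) or one assigned to the next gene (22). The gap between the probes on either side was 73 to 594 bp. Members' starts lie at least 3666 bp apart, so windows do not overlap. RNA values are log2 signal minus the array's 75th percentile; probes had to be well above background on both arrays of a group, and a gene was read by its brightest probe. The background flags of the second iPS column, which matched no scanner file, were taken from the first.

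All lines of a mark, and all 6 expression arrays, were fitted in limma 3.58.1 (R 4.3.3) with lmFit and eBayes, which leaves 2 and 3 residual degrees of freedom; the single iPS line is assumed to vary like the others. Adjusted p-values are Benjamini-Hochberg over all features, at 0.05, and for RNA with at least 2-fold. The fits were tested on simulated data. Folds given as "at least" compare means of normalized log2 values. The dim group was set, per array, at the lowest signal above background or its own signal if higher. Such folds hold for the percentile scaling only. Named with values in every line were the C-type genes, the first and last member of each cluster, the 2 largest ES to MEF differences per cluster and mark, up to 12 called members by smallest p, and all members with RNA above background on both arrays of a group; other genes named were chosen after their values were seen. Gene symbols were updated through tables of GRCm38.p6.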

Additional observations from a re-analysis of the deposited data

How the results depend on the processing

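For H3K27me3 between ES and MEF, 44 members were called, 0 to 45 when a line was left out; between iPS and MEF, 0 were called, but 51 with all probes of a gene, 12 without centring and 0 to 43 when a line was left out. For H3K4me3, the 5 calls between ES and MEF became 13 with normexp, where 3512 of 15155 promoters were called. They also depended on the lines kept, as given above. The 1 call between iPS and MEF became 0 with a 500 bp window and 2 with all probes, where 344 of 17872 genes were called. With normexp it became 3, all lower in iPS where the 1 was higher, and 1577 of 15155 promoters were called. The members' median iPS minus MEF difference was 0.19 to 0.25 when a line was left out. The 8 gamma calls before the start became 0 to 9 when a line was left out.

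Counts of H3K4me3-marked members moved with the threshold, background correction and centring. E14 had 18, but 8 with all probes, 11 without centring and 4 at a log2 ratio of 1.5. V6.5 had 15, but 9 with normexp, 27 at 1.5-fold and 6 at 1.5. MEF1 had 13, but 7 with normexp, 7 without centring, 23 at 1.5-fold and 3 at 1.5. MEF2 had 12, but 5 with all probes, 3 with normexp, 6 without centring, 26 at 1.5-fold and 2 at 1.5. The iPS line had 17, but 4 with normexp, 30 at 1.5-fold and 8 at 1.5. For H3K27me3, E14 had 30 but 3 at 1.5, MEF1 had 0 but 1 with all probes and 2 at 1.5-fold, and MEF2 had 1 but 0 with normexp, 2 with only probes above background, 2 at 1.5-fold and 0 at 1.5.

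Median H3K4me3 levels moved as follows. With a 500 bp window they were 0.97 in alpha ES, 0.068 in beta MEF, 0.24 in beta iPS, 1.35 in gamma ES and 1.40 in gamma iPS. With all probes they were 0.12, -0.33 and 0.32 in alpha ES, MEF and iPS, -0.19 in beta MEF, and 0.88, 0.90 and 1.11 in gamma ES, MEF and iPS. With normexp they were 0.60 and 0.37 in alpha ES and iPS, and 1.00, 0.87 and 0.46 in gamma ES, MEF and iPS. Without centring they were 0.61 and 0.64 in alpha ES and iPS, -0.31, -0.18 and -0.14 in beta ES, MEF and iPS, and 0.99, 0.88 and 1.05 in gamma ES, MEF and iPS. Median H3K27me3 levels with normexp were 1.15 and 1.33 in alpha ES and iPS, 1.17, -0.49 and 1.31 in beta ES, MEF and iPS, and 1.21 in gamma iPS, which was 1.2 with a 500 bp window.

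For RNA, the 13 members higher in MEF than ES became 6 with quantile normalization, 6 with normexp and quantile, and 11 to 23 when an array was left out. The 13 lower in iPS than MEF became 6, 5 and 13 to 24. With first and duplicate arrays as a replicate block, 14 and 13 were called. Between iPS and ES, 1 was called with these groups alone and 0 to 2 when an array was left out. With the scanner files as filed, which exchanges the ES and MEF arrays and drops the second iPS array, which matched no file, 13 members were called between iPS and ES and 0 between iPS and MEF, and the MEF minus ES differences turned to -4.58 (Pcdha9), -3.98 (Pcdhb5), -5.44 (Pcdhb6), -3.96 (Pcdhb7), -3.68 (Pcdhb14), -4.02 (Pcdhb15), -3.87 (Pcdhb16), -5.55 (Pcdhb17), -2.75 (Pcdhb19), -5.12 (Pcdhb20), -5.63 (Pcdhb21), -4.54 (Pcdhb22) and -2.81 (Pcdhga7), with 0.26 for Pcdhb5 between iPS and MEF. Apart from the exchange and loss of arrays the causes were not tested. Of the single-member values between MEF and ES under the alternatives, 201 for H3K27me3, 41 for H3K4me3 and 138 for RNA kept direction and call, while 74, 19 and 18 kept only direction. The totals for the marks include the fits on ES and MEF lines only and from at least 1 probe, which could not change a member's difference. All totals cover only called members named here, up to 23 for H3K27me3, 5 for H3K4me3 and 13 for RNA per alternative. Another 13 RNA values, those with the scanner files as filed, were reversed.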
